A study of Mus musculus with 8 samples.

Results

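The comparison was between LSK cells that carried RUNX1S291fs, a C-terminal frameshift mutant of RUNX1, and LSK cells that carried an empty retrovirus, each measured on 1 array. LSK cells are marrow cells without lineage markers that carry c-Kit and Sca-1, the fraction which holds the blood stem cells and the earliest progenitors. Every named gene whose probe read well above background on either array was taken, which gave 13973 of the 20660 genes on the array. Both arrays were part of a set of 8, 1 for each of 8 groups, so no group had a replicate, no difference had a test, and differences are described by their size.

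CD45.2+ stem cells of Cre-ERT;Ezh2wt/wt donors (C57BL/6) received RUNX1S291fs or the empty control by retrovirus and were grafted into lethally irradiated mice beside CD45.1+ wild-type marrow. At month 4 the CD45.2+ LSK cells of 2 to 4 recipients were pooled for each array, and 20 ng of total RNA was labelled. The labels give the disease stage of the RUNX1S291fs cells as normal, pre-MDS (myelodysplastic syndrome) and that of the wild-type cells as normal. The CD45.1+ wild-type LSK cells of RUNX1S291fs recipients and of recipients with both lesions were on 2 further arrays, called here the CD45.1+ arrays of the RUNX1S291fs marrow and of the double-mutant marrow. They carried no retrovirus. For a second look at RUNX1S291fs, the month 4 arrays of Ezh2Δ/Δ and of RUNX1S291fs/Ezh2Δ/Δ cells were used, made in the same way from Cre-ERT;Ezh2flox/flox donors with Ezh2 deleted after the graft. RUNX1S291fs was thus expressed from a retrovirus and not from its own locus. The labels give no age or sex of the mice and no agent for the Ezh2 deletion, and do not say how many mice gave the CD45.1+ cells, which were also taken at month 4. In triplets of levels in the text, the order is the wild-type array, the CD45.1+ array of the double-mutant marrow and that of the RUNX1S291fs marrow; where one more value follows, it is RUNX1S291fs.

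RUNX1 is the DNA-binding subunit of core-binding factor. It binds DNA through its Runt domain together with its partner CBFB, and its C-terminal part recruits activators and repressors. In blood it is needed for the emergence of stem cells, for platelet formation and for the lymphoid lineages, and truncating mutations of it recur in myelodysplastic syndrome and acute myeloid leukemia. Known targets of RUNX1 include genes of mast cells, platelets, lymphoid progenitors and granulocyte and monocyte progenitors.

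Levels are log2 processed signal minus the array's 75th percentile, which puts a probe of that signal at the level 0. The 75th percentile of signal was 474 on the wild-type array and 278 on the RUNX1S291fs array, and 55.3% and 48.2% of their probes were well above background. The arrays lay on different slides: wild type and RUNX1S291fs/Ezh2Δ/Δ on slide 1, and RUNX1S291fs, Ezh2Δ/Δ and both CD45.1+ arrays on slide 2. For the comparison of RUNX1S291fs with the wild-type array, slide and genotype cannot be told apart. The CD45.1+ arrays stood on the slide of the RUNX1S291fs array, but the one from its own marrow was the dimmest of all 8 (75th percentile 186, 43.9% of probes well above background). Where only 1 of both arrays measured a gene above background, the difference is a bound and is given as "at least". The bound was taken against the lowest level well above background on the dim array, or the gene's own level there if higher.

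Between both arrays, 1197 genes (8.57%) were higher with RUNX1S291fs by a factor of 2 or more and 805 (5.76%) were lower by as much. The median difference over all 13973 genes was 0.00 on the log2 scale, with quartiles of -0.31 and 0.36. Of these genes, 12479 were measured above background on both arrays, 225 gave a bound because only the RUNX1S291fs array measured them, and 596 because only the wild-type array did. The other 673 had no direction, since the bound lay on the wrong side, and were set to 0. Among the genes that differed at least 2-fold, 59.8% were higher with RUNX1S291fs. The share was 49.2% with dim values taken as measured instead of as bounds, 41.4% and 51.6% against the CD45.1+ arrays of the RUNX1S291fs and double-mutant marrow, and 65.7% after another background correction (normexp), so the balance between higher and lower genes depended on these choices.

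The 3 wild-type arrays show how far arrays of cells without RUNX1S291fs lay apart. The CD45.1+ array of the double-mutant marrow had 639 genes (4.57%) higher and 317 genes (2.27%) lower than the wild-type array, again by at least 2-fold. The dim CD45.1+ array of the RUNX1S291fs marrow differed at least 2-fold from the wild-type array in 2490 genes (18.0%) and from the other CD45.1+ array in 2140 genes (16.1%). The number of genes that differed between RUNX1S291fs and wild type therefore lay between these background values, and a count of genes alone does not set RUNX1S291fs apart. A stricter count was taken over genes for which RUNX1S291fs lay outside all 3 wild-type arrays. It was at least 2-fold above the highest of them in 323 of 14195 genes (2.28%) and at least 2-fold below the lowest in 222 (1.56%). These were 27.0% of the higher and 27.6% of the lower genes. A gene could count as above if it was well above background with RUNX1S291fs. It could count as below only if it was well above background on all 3 wild-type arrays. Both counts therefore do not rest on the same genes, which also holds for each list.

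The pair RUNX1S291fs/Ezh2Δ/Δ and Ezh2Δ/Δ, called the second pair, shares no array with the first pair and crosses the slides in the opposite direction, so it gives the same measure in other samples. In it, 1521 of 13967 genes (10.9%) were higher with RUNX1S291fs by at least 2-fold and 1536 (11.0%) lower. It has a limit of its own: Xist, which female cells express, was not well above background on the Ezh2Δ/Δ array and at least 5.40 higher on the log2 scale on the RUNX1S291fs/Ezh2Δ/Δ array, while the wild-type (1.33) and RUNX1S291fs (1.84) arrays both had it. Of 4 sex-linked genes compared in this pair, Xist among them, 1 was at least 2-fold higher and 3 lower with RUNX1S291fs. The Ezh2Δ/Δ array had 3 of these genes well above background and the RUNX1S291fs/Ezh2Δ/Δ array 1. The sex of the cells may thus differ between both arrays, which was not tested. Ezh2 deletion is common to both arrays of this pair.

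**Figure D1:**
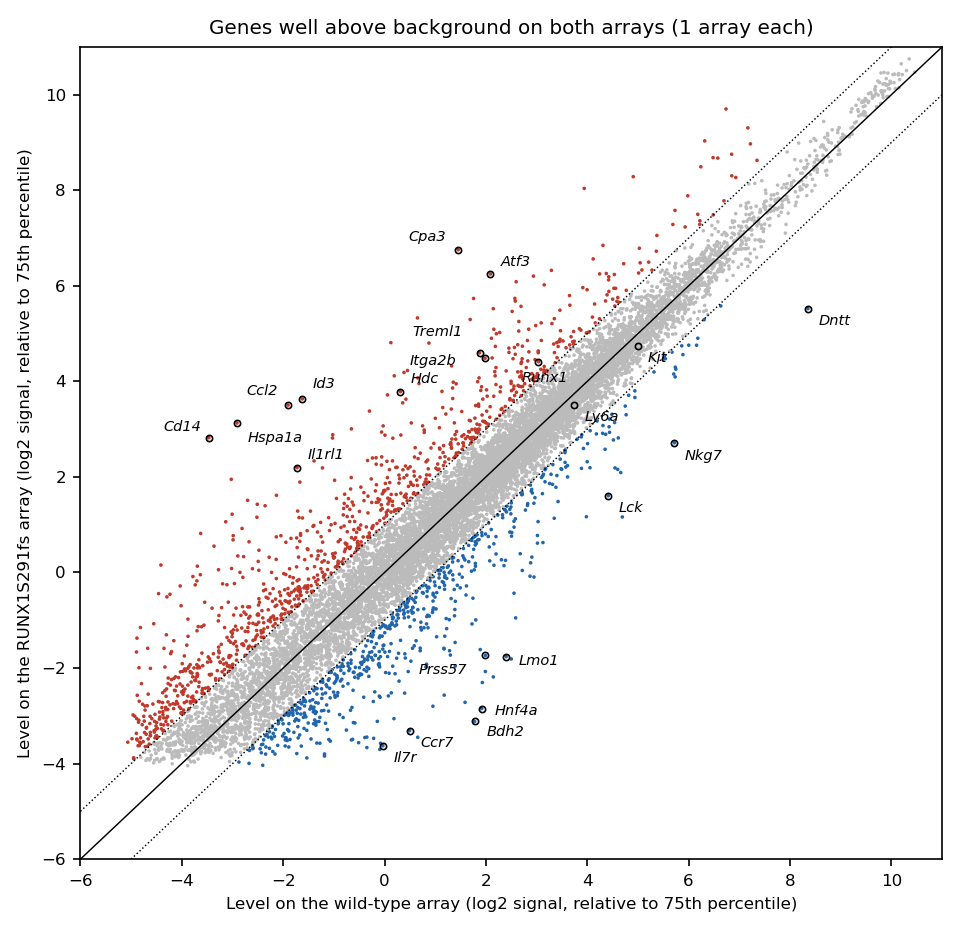
Levels of the 12479 genes well above background on both arrays: wild type on the x axis, RUNX1S291fs on the y axis, both as log2 signal relative to the array's 75th percentile, 1 point per gene. The solid line marks equal levels and the dotted lines a 2-fold difference; red genes are higher and blue genes lower with RUNX1S291fs, and Cpa3 (1.45 against 6.76) and Il7r (-0.03 against -3.63) lie far from the line while Kit and Ly6a lie near it.

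The markers of the sort were at similar levels. Kit, the stem cell factor receptor, had the level 4.99 on the wild-type and 4.75 on the RUNX1S291fs array. Ly6a, which encodes Sca-1, had 3.74 and 3.52, and the progenitor marker Cd34 had 8.18 and 8.17. Among lineage genes that the sort selects against, the T cell marker Cd8a was not well above background on either array. Cd3e (0.10 and 0.68), Cd4 (1.80 and 1.87) and Itgam (4.86 and 5.27), which encodes CD11b, gave signal on both, with differences below 2-fold. No probe matched Ly6g. The labelled cell type thus had its positive markers on both arrays, and of the 13 sort and lineage markers compared 0 were higher and 2 lower, Flt3 and Il7r.

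Runx1 was higher on the RUNX1S291fs array, at 4.41 against 3.04 on the wild-type array. The CD45.1+ arrays had 3.55 (double-mutant marrow) and 3.25 (RUNX1S291fs marrow), so RUNX1S291fs lay above all 3 by 0.86 or more. On the RUNX1S291fs/Ezh2Δ/Δ array the same probe had 3.47, and on the Ezh2Δ/Δ array 3.38. The 2 Runx1 probes disagreed, with differences from wild type of 1.38 and 0.17, and whether either lies in the part that the retrovirus carries was not tested. Of the other family members and partners, Runx2 was 2.19-fold higher (level -0.04 against -1.18). Runx3 differed by -0.05, the partner subunit gene Cbfb by -0.48 and the corepressor genes Cbfa2t3 and Cbfa2t2 by -0.24 and -0.03, all below 2-fold. Runx1t1 was not well above background on either array. Ezh2, which encodes the histone methyltransferase that the study deletes in other groups, had 3.46 and 3.40.

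Promoters are shown here because the RUNX motif is the sequence through which RUNX1 meets its targets, and because 9 of the 16 mast cell and basophil genes with a promoter held it. The sequences are the 250 bases before the first listed start of each gene, from RefSeq (GRCm38.p6), 5′ to 3′ on the gene's strand. The capitals mark the letters TGTGGT on either strand, the core that Runt domains bind. The first 4 are genes of mast cells and basophils: the carboxypeptidase gene Cpa3, the chymase gene Mcpt4, the IgE receptor alpha chain gene Fcer1a and the basophil protease gene Mcpt8. Rag1, the recombinase gene of lymphoid cells, follows.
Cpa3, chr3:20242182-20242431, minus strand: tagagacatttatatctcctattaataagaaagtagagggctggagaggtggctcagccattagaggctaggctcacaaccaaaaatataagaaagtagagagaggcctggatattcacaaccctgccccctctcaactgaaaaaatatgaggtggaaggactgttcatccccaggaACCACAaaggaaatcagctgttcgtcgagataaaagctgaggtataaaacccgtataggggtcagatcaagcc
Mcpt4, chr14:56062311-56062560, minus strand: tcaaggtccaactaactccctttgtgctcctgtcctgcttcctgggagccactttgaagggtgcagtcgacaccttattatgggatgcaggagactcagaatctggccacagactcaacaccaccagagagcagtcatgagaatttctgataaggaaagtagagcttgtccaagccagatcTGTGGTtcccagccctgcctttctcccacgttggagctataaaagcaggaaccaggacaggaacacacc
Fcer1a, chr1:173227230-173227479, minus strand: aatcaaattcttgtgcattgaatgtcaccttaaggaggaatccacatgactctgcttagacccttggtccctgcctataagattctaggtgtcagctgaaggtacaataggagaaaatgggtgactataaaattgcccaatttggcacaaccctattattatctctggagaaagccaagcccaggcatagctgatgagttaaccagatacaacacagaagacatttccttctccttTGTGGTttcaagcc
Mcpt8, chr14:56085198-56085447, minus strand: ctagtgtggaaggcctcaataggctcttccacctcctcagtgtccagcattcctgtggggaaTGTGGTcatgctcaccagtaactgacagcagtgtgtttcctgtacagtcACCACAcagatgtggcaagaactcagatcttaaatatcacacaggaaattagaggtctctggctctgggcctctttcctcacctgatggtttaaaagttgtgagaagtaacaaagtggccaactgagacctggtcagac
Rag1, chr2:101649533-101649782, minus strand: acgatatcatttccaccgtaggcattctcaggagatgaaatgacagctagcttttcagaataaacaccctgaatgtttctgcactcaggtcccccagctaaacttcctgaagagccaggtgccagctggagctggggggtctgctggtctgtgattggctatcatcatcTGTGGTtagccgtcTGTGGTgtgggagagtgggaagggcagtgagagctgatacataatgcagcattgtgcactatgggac

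Over the window from 250 bases before to 50 after the start, TGTGGT on either strand stood in 16.9% of the 27025 promoters and in 1456 of the 11176 promoters of the genes compared here. The share was 14.0% among higher genes and 17.5% among lower genes. Of the 16 mast cell and basophil genes with a promoter, 9 (56.3%) held it, and of the 20 immediate early genes, 0 did. The 9 included Cyp11a1, the 1 member of that list that was lower with RUNX1S291fs. The promoters printed for this motif were picked among those that hold it. The shares among lymphoid-primed progenitor genes (2 of 14, 14.3%), megakaryocyte and platelet genes (2 of 15, 13.3%) and interferon-stimulated genes (3 of 20) lay near that of all genes compared. The longer form TGTGGTT, which overlaps the first, stood in 3.87% of the promoters of all genes compared, in 4.04% of those of higher genes and in 6.36% of those of lower genes. These are counts of letters and do not say where RUNX1 was bound.

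Most genes of mast cells and basophils were higher with RUNX1S291fs. Of the 19 members above background on at least 1 array, 15 were at least 2-fold higher and 1 was lower, with a median difference of 1.33, beside 0.00 over all genes; 8 lay at least 2-fold above all 3 wild-type arrays and 0 below. Of the 23 members with a probe, 18 were well above background on the RUNX1S291fs array, 16 on the wild-type array and 17 on each CD45.1+ array. The number of members measured thus differed little between these arrays. In cells sorted as a bulk, more cells of a type and more RNA per cell cannot be told apart, which holds for every list.

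Cpa3, the carboxypeptidase of mast cell granules, had the level 1.45 on the wild-type array, 2.24 on each CD45.1+ array and 6.76 on the RUNX1S291fs array. The wild-type arrays lay together and RUNX1S291fs lay 4.52 above the highest of them. The difference from wild type was 5.30, or 39.5-fold. Among genes measured on both arrays, only Cd14, Hspa1a and Ccl2 differed more in this direction.

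Mcpt4, a chymase, was not well above background on the wild-type array, had -2.48 and -1.10 on the CD45.1+ arrays of the double-mutant and RUNX1S291fs marrow, and 2.65 with RUNX1S291fs. It was thus at least 230-fold higher than on the wild-type array. Cma1, another chymase, was likewise dim on the wild-type array, with -2.53 and -2.09 on the CD45.1+ arrays and -0.14 with RUNX1S291fs, at least 33.2-fold higher. Of the CD45.1+ arrays, the one from the RUNX1S291fs marrow was the nearer for both.

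Il1rl1, the receptor for interleukin-33, ran from -1.73 on the wild-type array through -0.95 and -0.21 to 2.20 with RUNX1S291fs, a 15.2-fold difference. Hdc, the enzyme that makes histamine, had 0.31, 2.20 and 3.27 on the wild-type arrays and 3.79 with RUNX1S291fs. It was 11.1-fold higher than on the wild-type array but only 0.52 above the CD45.1+ cells of the same marrow. The 2 genes for which a promoter is printed and which were not among the largest differences were smaller in size. Fcer1a had 0.43 and 1.64, and Mcpt8 had 0.85 and 2.35, below its 3.81 on the CD45.1+ array of the RUNX1S291fs marrow. Csf2rb, the shared receptor chain for interleukin-3, interleukin-5 and GM-CSF, was 2.66-fold higher. Cyp11a1, a steroid-making enzyme, was the exception among the members, 2.25-fold lower.

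Tpsg1 and Mcpt-ps1, a tryptase gene and a mast cell protease pseudogene that were not on the list, were dim on all 3 wild-type arrays. With RUNX1S291fs they had -0.99 and -1.20, at least 18.5-fold and at least 16.0-fold higher than wild type.

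The same genes were higher when RUNX1S291fs was added to Ezh2 deletion. On the Ezh2Δ/Δ array Cpa3 had 1.74 and on the RUNX1S291fs/Ezh2Δ/Δ array 6.39. Il1rl1 had -1.81 and 3.63, and Hdc 1.28 and 6.01. Of the mast cell and basophil genes, 13 were at least 2-fold apart in the same direction in both pairs of arrays, and the median in the second pair was 2.53. Cyp11a1 went the other way there, 2.91 higher.

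Eosinophil granule genes were also higher: 7 of 9 members by at least 2-fold and 0 lower, with a median of 2.11, and 5 lay above all 3 wild-type arrays. Prg2, the major basic protein, had 2.12 on the wild-type array, 0.98 and 2.68 on the CD45.1+ arrays and 4.49 with RUNX1S291fs. Il5ra, the interleukin-5 receptor chain, had -2.48, -2.17, -2.03 and 0.05 in the same order. Both stood above every wild-type array. The eosinophil ribonuclease gene Ear1 (1.45) and the major basic protein homologue Prg3 (0.00) did so too, 4.73-fold and 4.69-fold above the wild-type array. With Ezh2 deleted in both cells, 8 of 9 members were higher with RUNX1S291fs (median 1.64).

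Megakaryocyte and platelet genes were split. Of 21 members, 10 were at least 2-fold higher and 1 lower, the median was 0.61, and 7 lay above the range of the wild-type arrays. Treml1, a receptor of platelet granules, had 1.87 on the wild-type array, 1.79 and -0.81 on the CD45.1+ arrays and 4.60 with RUNX1S291fs. Itga2b, which encodes CD41, had 1.98, 2.07, -0.47 and 4.48. Treml1 was 6.61-fold and Itga2b 5.66-fold above the wild-type array, and both were above all 3.

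Clec1b, the podoplanin receptor of platelets, was 8.65-fold higher (0.33 against -2.78), and Plek, a protein kinase C substrate of platelets, was 3.69-fold higher (6.26 against 4.38). Mmrn1, a platelet storage protein, went the other way, 13.5-fold lower at -2.80 against 0.95; it was not well above background on the dim CD45.1+ array. In the second pair Treml1 (3.36), Clec1b (3.96) and Itga2b (2.24) were again higher and Mmrn1 (-2.41) again lower, while Plek (-0.20) was not.

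**Figure D2:**
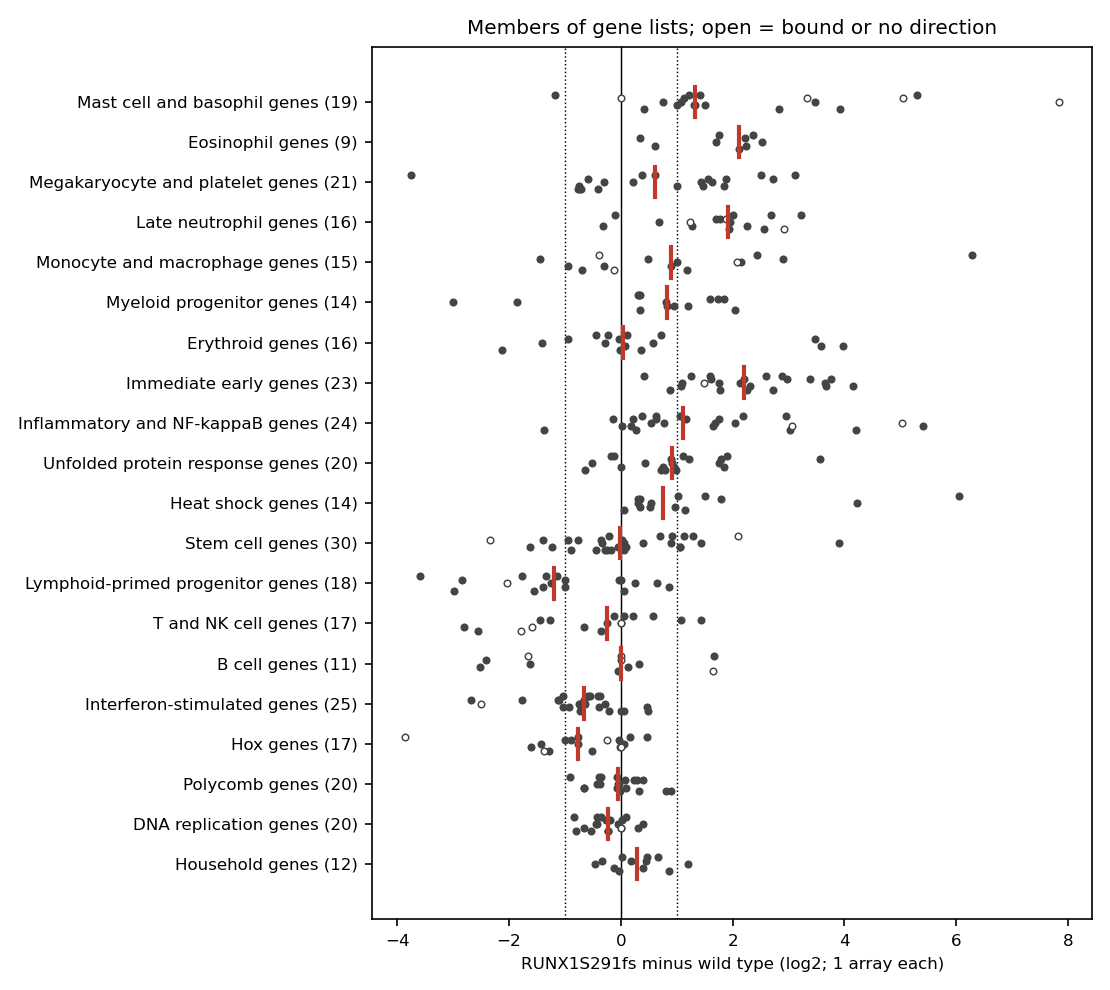
Differences (RUNX1S291fs minus wild type, log2) of the members of 20 gene lists, 1 point per gene; filled points were measured above background on both arrays, open points are bounds or have no direction, and the red bar is the list's median. The number of members compared is in parentheses, the dotted lines mark 2-fold, and most points of the immediate early, late neutrophil, eosinophil and mast cell lists lie to the right of the upper line, whereas polycomb and DNA replication genes lie between the lines.

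Late neutrophil genes were higher than on the wild-type array in 13 of 16 members, with a median of 1.91, and 0 lower. By a factor of 2, 0 members lay above the range of the wild-type arrays. Lcn2, a siderophore-binding granule protein, had -0.33 on the wild-type array, 1.98 and 3.77 on the CD45.1+ arrays of the double-mutant and RUNX1S291fs marrow, and 2.34 with RUNX1S291fs. Chil3, a chitinase-like granule protein, had -0.17, -0.19, 2.63 and 2.40. RUNX1S291fs cells and the CD45.1+ cells of the same marrow were both high, and against those the list's median was -0.30. The cystatin genes Stfa2 and Stfa1 were likewise close, with -1.66 and -2.28 on the RUNX1S291fs array and -2.12 and -2.06 on the CD45.1+ array of its marrow.

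Genes of granulocyte and monocyte progenitors went the same way. Of 14 members, 5 were at least 2-fold higher and 2 lower than on the wild-type array (median 0.82), but against the CD45.1+ array of the same marrow 10 were lower and 0 higher (median -1.53), where 8.73% of all genes were higher and 12.3% lower by at least 2-fold. Elane, neutrophil elastase, had 2.83 on the wild-type array, 4.80 and 7.30 on the CD45.1+ arrays and 4.43 with RUNX1S291fs. Ms4a3, a marker of these progenitors, had 2.82, 4.87, 7.53 and 4.86. For both, RUNX1S291fs lay inside the range of the wild-type arrays, which was wide. In the second pair 13 of 15 members were at least 2-fold higher and 1 lower (median 3.06). Of all genes, 10.9% were higher and 11.0% lower there.

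Both lower members were below all 3 wild-type arrays. Gfi1, a repressor that granulocyte progenitors need, was 3.63-fold lower with RUNX1S291fs, at 2.19 against 4.05, 3.73 and 4.49 on the wild-type arrays. In the second pair Gfi1 went the other way, 3.06 higher. Nkg7, a granule membrane protein, had 5.72, 5.92 and 7.07 on the wild-type arrays and 2.71 with RUNX1S291fs, 8.04-fold below the wild-type array and below all 3. Prss57, a serine protease of granulocyte granules that was not on the list, had 1.99, 2.15 and 3.75 against -1.74. It was 13.2-fold lower here but 2.05 higher in the second pair.

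Monocyte and macrophage genes were higher than on the wild-type array in 7 of 15 members and lower in 1 (median 0.90), with 1 above the range of the wild-type arrays. That 1 was Cd14, the co-receptor for lipopolysaccharide, with -3.47 on the wild-type array, -0.05 on the CD45.1+ array of the double-mutant marrow and 2.82 with RUNX1S291fs. Its 78.2-fold difference from wild type was the largest of all genes measured on both arrays. Above the highest wild-type array it stood 1.72. Adgre1, a macrophage surface receptor, was 7.48-fold higher than wild type at -0.98, but only 0.23 above the CD45.1+ cells of the same marrow. Ccr2 (0.78) and F13a1 (3.99) were higher than on the wild-type array (-1.66 and 1.84) and lower than in those cells (2.78 and 6.46).

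A few red cell genes were high with RUNX1S291fs, and the rest of the list was not. Hba-a1, alpha globin, had 1.76 on the wild-type array, 1.27 and 4.96 on the CD45.1+ arrays and 5.74 with RUNX1S291fs. Slc4a1, the anion exchanger of red cells, had -3.63, -2.91, -0.50 and -0.05, and Alas2, the erythroid enzyme that starts heme synthesis, was 11.1-fold higher than wild type. The list as a whole had 3 of 16 members higher and 2 lower, with a median of 0.04, and Car1 (4.35-fold) and Epor (2.65-fold) were the lower ones. The high globin signal was shared by 4 arrays: RUNX1S291fs, the CD45.1+ array of its marrow, Ezh2Δ/Δ (6.17) and RUNX1S291fs/Ezh2Δ/Δ (5.01).

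Lymphoid-primed progenitor genes were the group most often lower. Of 18 members, 10 were at least 2-fold lower and 0 higher, with a median of -1.19, and 3 lay below all 3 wild-type arrays. Il7r, the interleukin-7 receptor of lymphoid progenitors, had -0.03 on the wild-type array, 0.04 and -1.18 on the CD45.1+ arrays and -3.63 with RUNX1S291fs. RUNX1S291fs was the lowest, with a difference of -2.45 from the next array, and 12.1-fold below the wild-type array.

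Dntt, terminal transferase, had 8.35, 7.86 and 7.39 on the wild-type arrays and 5.52 with RUNX1S291fs, 7.12-fold lower than wild type. Blnk, an adaptor of the B cell receptor, had 2.55, 3.76, 1.26 and -0.43. Both were below every wild-type array. Rag1, whose promoter with 2 TGTGGT sites is printed before the results, was not well above background with RUNX1S291fs and was at least 4.08-fold lower than wild type; on the dim CD45.1+ array it was not well above background either. Flt3, the receptor tyrosine kinase of multipotent progenitors, was 2.93-fold lower (4.15 against 5.71), with a difference of -0.71 from the lowest wild-type array.

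In the second pair Il7r (-3.54), Dntt (-2.30), Blnk (-5.92), Rag1 (a bound of -5.23) and Flt3 (-2.67) were lower as well, and 10 members were at least 2-fold lower in both pairs. The second pair started from a higher level: the mean over the list was 2.49 on the Ezh2Δ/Δ array and 1.90 on the wild-type array. With RUNX1S291fs it was 0.72 (RUNX1S291fs/Ezh2Δ/Δ) and 0.79 (RUNX1S291fs alone). Against the CD45.1+ array of the RUNX1S291fs marrow the median of the list was -0.09. Those cells were themselves lower than the wild-type array in 8 of 18 members (median -0.90), against 6.64% of all genes; Il7r, Dntt and Blnk were more than 2-fold lower even there.

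B cell genes lay at uneven levels on the wild-type arrays, with 1.23, 3.88 and 1.27 for Vpreb1. Vpreb1 and Vpreb3, surrogate light chain genes, were 5.28-fold and 5.75-fold lower with RUNX1S291fs, and Igll1 was not well above background, at least 3.17-fold lower. Of 11 members 4 were lower and 2 higher, and the median was 0.00. Against the CD45.1+ array of the double-mutant marrow, which had the highest Vpreb1, 8 of 13 were lower and 0 higher (median -3.36), where 5.13% of all genes were lower and 5.48% higher. The Ezh2Δ/Δ array had these genes high (Vpreb1 7.06, Vpreb3 6.33, Igll1 4.34), so that the second pair, with a median of -6.17, had a different starting point.

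T and NK cell genes were lower in 6 of 17 members and higher in 2, with a median of -0.25; 5 lay below all 3 wild-type arrays and 0 above. Against each CD45.1+ array 9 of 16 were lower and 0 higher, with medians of -1.37 (double-mutant marrow) and -1.28 (RUNX1S291fs marrow). Of all genes, 5.13% and 12.3% were lower in these comparisons. The median was -1.19 against the mean of the 3 wild-type arrays and -0.65 with dim values taken as measured. Lck, a kinase of T cell receptor signalling that lymphoid progenitors also express, had 4.42, 4.26 and 3.83 on the wild-type arrays and 1.61 with RUNX1S291fs. Zap70, another kinase of this pathway, had -0.75, -1.07 and -1.17 against -3.30. The wild-type arrays lay close together for both genes, and RUNX1S291fs differed from the lowest of them by -2.23 (Lck) and -2.13 (Zap70). The second pair gave -3.95 and -4.13. The T cell genes Cd3e and Cd4 were not lower in either pair. Cd3d was 2.72-fold higher than on the wild-type array, but inside the range of the wild-type arrays. Klrb1c, an NK receptor, and Tcf7, a factor of early T cells, were well above background on all 3 wild-type arrays and not with RUNX1S291fs, at least 3.43-fold and at least 3.01-fold lower than wild type.

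The interleukin-1 receptor family split by receptor. Il18r1, the interleukin-18 receptor, had 0.56, 0.38 and -0.03 on the wild-type arrays and was not well above background with RUNX1S291fs, at least 24.5-fold lower. Il18rap, its partner chain, had -0.10 on the wild-type array and -2.59 with RUNX1S291fs, a difference of -2.49. Both were below every wild-type array. Il1r1, the signalling receptor for interleukin-1, was 2.75-fold lower (1.12 against 2.58), and Il1r2, the decoy receptor, was 3.62-fold higher (0.63 against -1.22). In the second pair Il1rl1 (5.44), Il18r1 (-4.94), Il18rap (-1.81) and Il1r1 (-1.51) had the same direction and Il1r2 (-4.20) the opposite one.

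**Figure D3:**
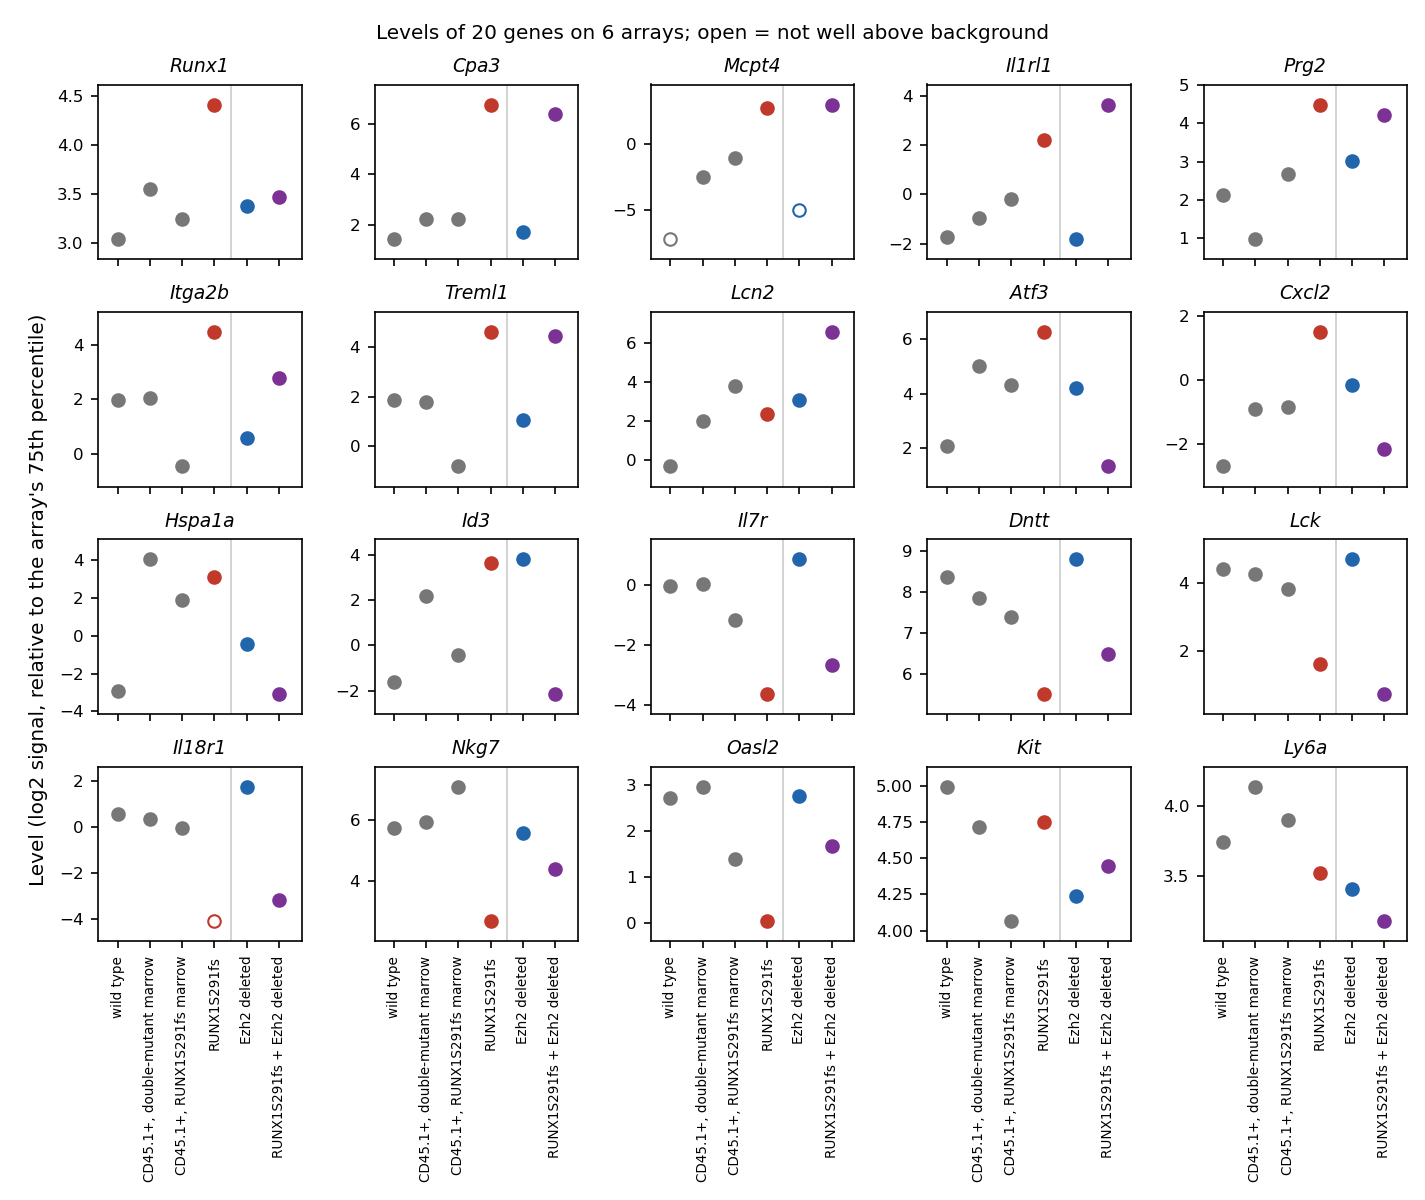
Levels of 20 genes (log2 signal relative to the array's 75th percentile) on 6 arrays, 1 point per array: 3 wild-type arrays in grey, RUNX1S291fs in red, and, right of the line, Ezh2Δ/Δ in blue and RUNX1S291fs/Ezh2Δ/Δ in purple; open points were not well above background. Cpa3, Il1rl1, Itga2b and Treml1 are high on both RUNX1S291fs arrays and Il7r, Lck and Il18r1 low on both, whereas Atf3, Cxcl2 and Id3 are high on the RUNX1S291fs array and low on the RUNX1S291fs/Ezh2Δ/Δ array.

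Immediate early genes, which cells switch on within minutes of a stimulus, were higher with RUNX1S291fs in 21 of 23 members and lower in 0, with a median of 2.20. Of the members, 5 lay above all 3 wild-type arrays by at least 2-fold. Atf3, a stress-induced factor of the AP-1 family, had 2.09 on the wild-type array, 5.01 and 4.33 on the CD45.1+ arrays and 6.25 with RUNX1S291fs. Egr2, a zinc finger factor, had -2.36, 0.67, -0.29 and 1.40, and Maff, a small Maf factor, 0.06, 2.36, 1.08 and 3.72. The wild-type array was the lowest for all 3 genes.

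Against the CD45.1+ arrays of the double-mutant and of the RUNX1S291fs marrow the list's median was 0.73 and 1.68, so the size of the difference depended on the array it was set against. The CD45.1+ array of the double-mutant marrow itself had a list median 1.52 above the wild-type array. The second pair had the opposite direction: 12 of 22 members were lower and 1 higher when RUNX1S291fs was added to Ezh2 deletion, with a median of -1.24. In both pairs the array on slide 2 had the higher values, and the part of the slide was not tested.

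Genes of inflammation and NF-kappaB signalling were higher in 13 of 24 members and lower in 1 (median 1.11), and 6 lay above the range of the wild-type arrays. Ccl2, a chemokine that attracts monocytes, had -1.90 on the wild-type array, 1.03 and 2.54 on the CD45.1+ arrays and 3.50 with RUNX1S291fs. Cxcl2, a chemokine for neutrophils, had -2.70, -0.90, -0.83 and 1.51. Ccl7 and Cxcl1, chemokines of the same families, were dim on the wild-type array and were at least 32.8-fold and at least 8.34-fold higher with RUNX1S291fs. Ccl3, another chemokine, was 2.60-fold lower (3.05 against 4.43) and below all 3 wild-type arrays.

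The second pair again opposed the first, with 15 of 23 members lower and 4 higher and a median of -1.38. Ccl2 (1.81) and Ccl7 (at least 1.47) were higher in both pairs and Ccl3 (-1.31) was lower in both.

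The medians of both stress lists were above 0 against the wild-type array and near or below 0 against the CD45.1+ cells. Heat shock genes were higher in 6 of 14 members (median 0.76), and the medians against the CD45.1+ arrays of the double-mutant and RUNX1S291fs marrow were -0.13 and -0.41. Hspa1a, the inducible HSP70, had -2.91 on the wild-type array, 4.04 and 1.91 on the CD45.1+ arrays and 3.13 with RUNX1S291fs. Hspb1 had -3.01, 3.23, -1.31 and 1.22. The large differences of 65.8-fold and 18.7-fold from the wild-type array therefore lay inside the range of the wild-type arrays.

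Unfolded protein response genes were higher in 7 of 20 members and lower in 0 (median 0.91), and the medians against the same CD45.1+ arrays were 0.04 and -0.50. Hspa5, the main chaperone of the endoplasmic reticulum, had 5.98 on the wild-type array, 7.89 with RUNX1S291fs and 8.30 on the CD45.1+ array of the same marrow. Chac1, an enzyme that degrades glutathione, was 11.8-fold higher (1.89 against -1.67) and 2.19 above the highest wild-type array.

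Among p53 target genes 5 of 18 were higher and 3 lower, with a median of -0.13. Cdkn1a, which encodes the cell cycle inhibitor p21, had 1.69, 3.61 and 2.59 on the wild-type arrays and 5.30 with RUNX1S291fs. It was 12.2-fold higher than wild type and 1.68 above the highest wild-type array. The apoptosis genes Pmaip1 (14.0-fold) and Bbc3 (4.45-fold) were higher than wild type too, whereas Sesn1 (2.77-fold), Phlda3 (2.63-fold) and Zmat3 (2.37-fold) were lower. With Ezh2 deleted, Cdkn1a (-2.67) and Bbc3 (-2.81) were lower.

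The inhibitors of E proteins were high. Id3 had -1.62 on the wild-type array, 2.20 and -0.44 on the CD45.1+ arrays and 3.63 with RUNX1S291fs, a 38.2-fold difference from wild type. Id1 had 0.19, 3.49, 2.80 and 4.12, and Hes1, a Notch target, was 12.7-fold higher. Id2 was 2.11-fold higher. The list of Id and E protein genes had 4 of 9 members higher and 0 lower, with a median of 0.03, so the other members, among them the E protein genes, differed by less than 2-fold.

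**Figure D4:**
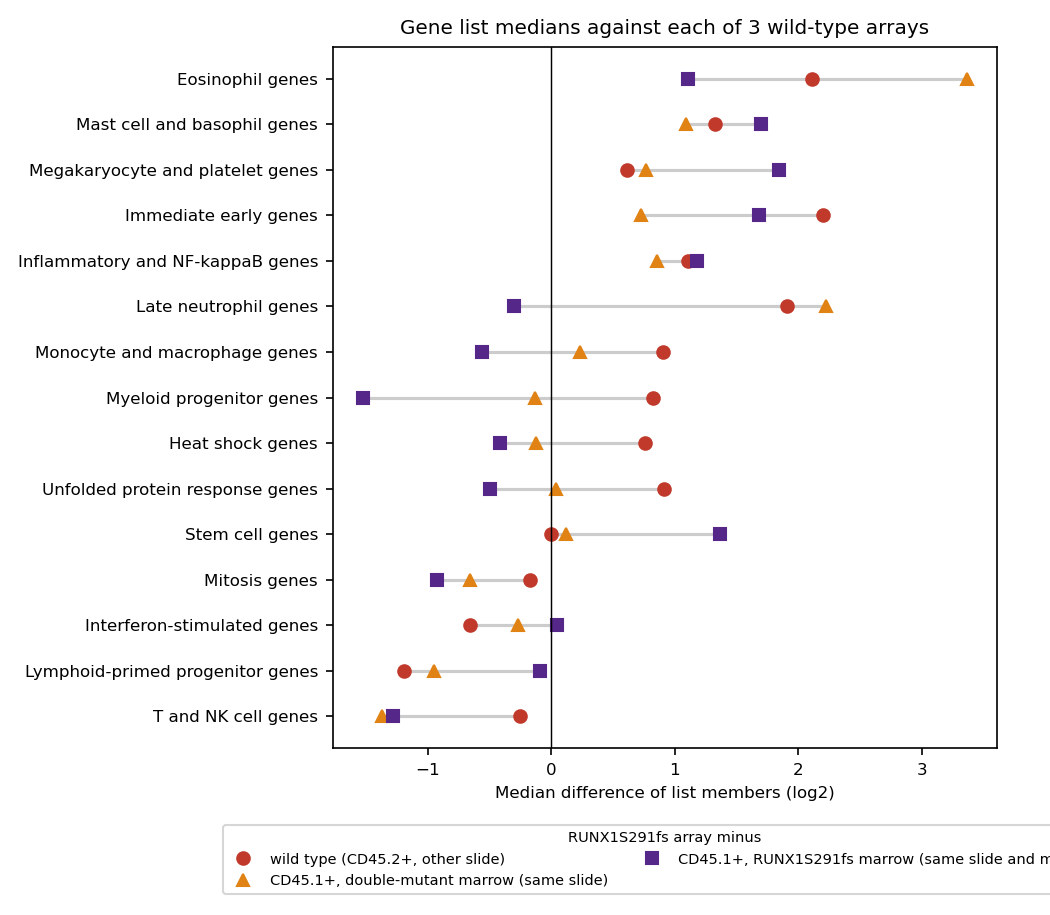
Median log2 difference between the RUNX1S291fs array and each of 3 wild-type arrays for 15 gene lists: circles against the CD45.2+ wild-type array on the other slide, triangles and squares against the CD45.1+ arrays on the same slide. The 3 comparisons share the RUNX1S291fs array; mast cell, eosinophil, megakaryocyte, immediate early and inflammatory medians stay above 0 in all 3, while late neutrophil, monocyte, myeloid progenitor and heat shock medians are above 0 against wild type and below 0 against the CD45.1+ cells of the same marrow.

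Interferon-stimulated genes were lower in 7 of 25 members and higher in 0, with a median of -0.66. Oasl2, an antiviral oligoadenylate synthetase relative, had 2.72, 2.97 and 1.40 on the wild-type arrays and 0.04 with RUNX1S291fs, 6.39-fold below wild type and with a difference of -1.36 from the lowest. Ifitm3, a membrane protein that blocks virus entry, had 5.32, 5.34, 5.27 and 4.20. Ifitm3 was thus nearly equal on the 3 wild-type arrays and 2.17-fold lower with RUNX1S291fs. Rtp4 was 3.42-fold lower than on the wild-type array, but its difference from the lowest of the 3 was -0.07. Ifit3, an RNA-binding antiviral protein, was not well above background with RUNX1S291fs, at least 5.62-fold lower than wild type.

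The promoter of Ifit3 is shown for the letters of the interferon-stimulated response element (GAAA, any 2 bases, GAAA, on either strand), which interferon-activated factors bind; the capitals mark them.
Ifit3, chr19:34583279-34583528, plus strand: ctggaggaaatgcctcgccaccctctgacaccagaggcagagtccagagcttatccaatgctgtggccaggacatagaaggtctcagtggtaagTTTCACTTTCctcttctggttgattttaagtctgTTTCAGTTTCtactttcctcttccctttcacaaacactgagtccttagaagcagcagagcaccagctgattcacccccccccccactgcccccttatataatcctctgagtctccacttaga
These letters stood in 12 of the 20 promoters of interferon-stimulated genes (60.0%) and in 3.19% of the promoters of all genes compared. The share was 4.26% among higher genes and 4.93% among lower genes. Among genes higher in both pairs it was 5.38%, and among those lower in both 4.43%. In the second pair 11 of 25 members were lower and 0 higher (median -0.76); against the CD45.1+ array of the RUNX1S291fs marrow the median was 0.05.

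Stem cell genes had no common direction against the wild-type array: 7 of 30 were higher and 4 lower, with a median of -0.01. Against the CD45.1+ array of the same marrow 18 of 30 were higher and 0 lower (median 1.37). Of all genes, 8.73% were higher and 12.3% lower there. The CD45.1+ array was itself lower than the wild-type array in 19 of 29 members (median -1.61), beside 6.64% of all genes. Sult1a1, a sulfotransferase, had -1.02, 0.23 and -1.98 on the wild-type arrays and 2.88 with RUNX1S291fs, a difference of 3.90 from wild type and of 4.81 in the second pair. Mecom, a stem cell transcription factor, was well above background on all 3 wild-type arrays (-1.44, -2.42 and -3.05) and not with RUNX1S291fs, at least 5.08-fold lower than wild type. Mycn was 3.09-fold lower than wild type, with a difference of -0.01 from the dim CD45.1+ array. Fgd5 was at least 4.27-fold higher, and Tek, the angiopoietin receptor, 2.46-fold higher.

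The list of genes reported as RUNX1 targets had 7 of 24 members higher and 4 lower with a median of 0.16. Of all genes, 8.57% were higher and 5.76% lower, so members on both sides do not set this list apart. The higher ones included Cpa3, Cdkn1a, the platelet lipoxygenase Alox12 (5.21-fold, -1.52 against -3.90) and the chromatin protein Hmga2 (3.99-fold, 1.84 against -0.16). The lower ones were Il7r, Rag1, Gfi1 and Ccl3. Csf1r, the receptor for M-CSF, was 2.30-fold higher by the probe used, with differences between 0.01 and 1.20 over 3 probes. Alox12 was higher in the second pair as well (2.75), while Hmga2 was lower there (-1.04). Of this list, 7 genes were at least 2-fold apart in the same direction in both pairs. Among all 13464 genes compared in both, 293 were higher and 343 lower in both.

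Hox genes were lower in 5 of 17 members and higher in 0 (median -0.77). Of these, 0 were counted below the range of the wild-type arrays. That count was open only to genes well above background on all 3, and the dim CD45.1+ array had 11 Hox genes so. A member dim there could not be counted. Hoxa10 was 3.04-fold lower than wild type (-2.19 against -0.59), with -2.24 on the dim CD45.1+ array. Hoxc6 was not well above background with RUNX1S291fs, at least 14.5-fold lower than wild type, nor on the CD45.1+ array of its marrow.

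The lists of general cell functions differed little from the wild-type array. Polycomb genes had 0 of 20 members apart by 2-fold, ribosome biogenesis genes 0 of 21, DNA replication genes 0 of 20 and mitosis genes 1 of 20, which was Aurkb (4.10-fold lower). Their medians lay between -0.23 and -0.01. Household genes, used as a check of the scaling, had a median of 0.29 with 1 of 12 higher. Against the CD45.1+ array of the RUNX1S291fs marrow, mitosis genes had a median of -0.93 with 9 of 20 lower, beside 12.3% of all genes. Stroma and endothelium genes had 0 of 9 higher and 1 lower.

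Outside the lists, some of the largest differences belonged to genes for which RUNX1S291fs lay outside the wild-type arrays. Lmo1, a LIM-domain factor, had 2.40, 2.96 and 3.79 on the wild-type arrays and -1.76 with RUNX1S291fs, 17.9-fold below wild type. Bex1 had 2.50, 3.09 and 1.38 against -1.81, and Klhl30 0.66, 0.29 and -0.30 against -3.45. Hnf4a, a nuclear receptor best known from liver, had 1.92, 2.01, -0.29 and -2.85. All 4 were below every wild-type array. On the higher side, C4b, a complement component, had 0.65, -1.07 and -2.15 against 4.07, and Cd200r4, a gene of the CD200 receptor family, had -3.63 and -3.62, was dim on the third, and had 0.82 with RUNX1S291fs. C4b was 6.73 and Cd200r4 at least 3.29 higher in the second pair.

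For other large differences from the wild-type array, 1 or both CD45.1+ arrays lay near or beyond RUNX1S291fs. Bdh2, a short-chain dehydrogenase, was 29.8-fold lower than on the wild-type array (-3.12 against 1.78), but the CD45.1+ array of the same marrow had -2.68; in the second pair it differed by -5.69. Rps4l had 2.15 on the wild-type array, -3.51 and 0.08 on the CD45.1+ arrays of the double-mutant and RUNX1S291fs marrow and -2.19 with RUNX1S291fs, above one and below the other. Syt10 was well above background on the wild-type array only. Jchain, the joining chain of antibodies, was 31.5-fold higher than on the wild-type array (1.95 against -3.03), and the CD45.1+ arrays had 2.59 and 1.46.

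Some probes were bright on the RUNX1S291fs array alone. Ttc29, Egfem1, Olfr213 and Kif26a had levels of 0.18, 0.06, 0.07 and -0.04 there, were not well above background on any other array, and so gave bounds of at least 35.6-fold to at least 41.4-fold. On the RUNX1S291fs array 28 probes were above -1 and well above background while no other of the 8 arrays measured them, and 18 of these lay within 2 rows and 1 column of another such probe on the glass. Olfr213 was among the 18; Ttc29, Egfem1 and Kif26a were not. The wild-type array had 2 such probes, 0 of them side by side, and the CD45.1+ array of the RUNX1S291fs marrow 25, with 13 side by side. Tex28 had 0.16 on the RUNX1S291fs array and -4.41 on the wild-type array, and was dim on both CD45.1+ arrays. Second probes of Ttc29, Egfem1, Kif26a and Tex28 were not well above background on the RUNX1S291fs array. The part of position on the glass in these values was not tested.

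Of 13464 genes compared in both pairs, 343 were lower in both, which is 43.4% of the genes lower in the first pair and 25.1% of those lower in the second; 10.1% of all genes were lower in the second pair. Higher in both were 293, or 26.8% of the first and 20.5% of the second list, against 10.6% of all genes. Opposite directions were also frequent among higher genes: 270 of them (24.7%) were at least 2-fold lower in the second pair, beside 91 of the lower genes (11.5%) that were higher there. Genes lower with RUNX1S291fs were thus shared between the pairs more often than they were reversed, whereas higher genes were shared and reversed in nearly equal number.

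The genes with the largest difference common to both pairs were mast cell genes on the higher side, with Mcpt4, Cma1, Cpa3, Tpsg1, Mcpt-ps1, Il1rl1 and Hdc among the first 10, beside Sult1a1 and Cd14. The first 10 on the lower side were Bdh2, Hnf4a, Il18r1, Hdgfl3, Ccr7, Dcaf12l1, Klhl30, Il7r, Igf2r and Zfp618. Ccr7, a chemokine receptor of lymphocytes and dendritic cells, had 0.49, -0.50 and -0.25 on the wild-type arrays and -3.31 with RUNX1S291fs, and differed by -4.87 in the second pair. Igf2r, Dcaf12l1 and Zfp618 were not well above background with RUNX1S291fs, with bounds of -3.58, -3.89 and -3.90 on the difference from wild type. Hdgfl3 was 16.7-fold lower.

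TGTGGT stood in 19.3% of the promoters of genes higher in both pairs and in 21.0% of those of genes lower in both, that is in 43 of 223 and 57 of 271, beside 1456 of 11176 for all genes compared. TGTGGTT stood in 6.73% and 9.59%, beside 3.87%. Genes outside the range of the wild-type arrays held TGTGGT in 37 of 247 promoters (above) and in 28 of 169 (below).

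**Figure D5:**
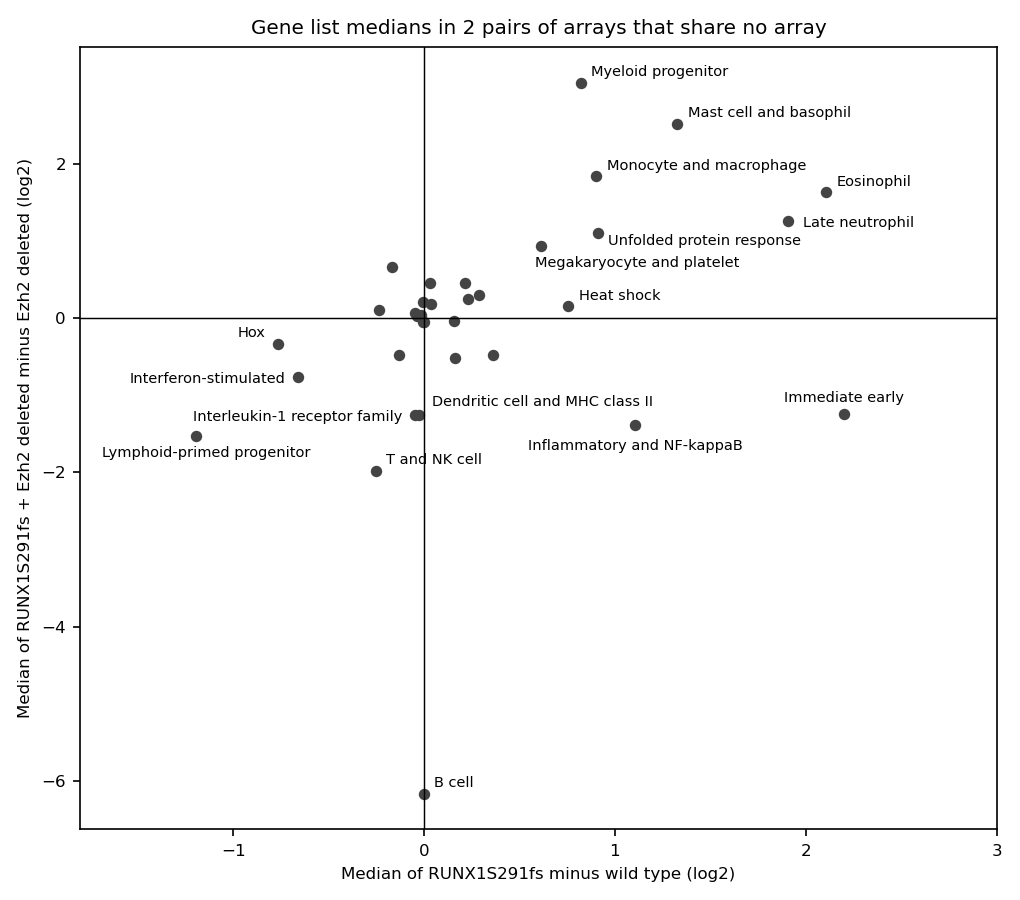
Median log2 difference of each gene list with at least 5 members compared, in RUNX1S291fs minus wild type (x axis) and in RUNX1S291fs/Ezh2Δ/Δ minus Ezh2Δ/Δ (y axis), 1 point per list. Mast cell, eosinophil, megakaryocyte and neutrophil lists lie above 0 in both and lymphoid-primed progenitor genes below 0 in both (-1.19 and -1.53), while immediate early (2.20 and -1.24) and inflammatory lists (1.11 and -1.38) lie on opposite sides.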

How the data were processed

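LSK cells were measured on 8 one-colour Agilent arrays, 1 per group. Per the labels' protocols, cells were sorted by flow cytometry and 20 ng of total RNA was amplified and labelled with Cy3. Per the file headers, Agilent Feature Extraction 10.7.1.1 turned each spot's intensity into a background-subtracted processed signal, array by array and unscaled; spot and background medians are raw intensity. The series table deposited by the authors holds linear signal, which differs from the processed signal by a constant factor on each array (99.8% of probes within 0.01 log2 on the wild-type array).

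Control spots and outlier spots were left out, spots of a probe were averaged, and log2 signal minus the array's 75th percentile was used. RefSeq transcript accessions named 27235 of 55681 probes (20660 genes); the other 28446 probes stayed unnamed. The probe with the highest mean over the 8 arrays stood for its gene. A value not well above background was raised to the lowest level well above background on its array, unless it was already higher. Differences of at least 2-fold were counted; with 1 array a group there was no test, and the number of arrays limits the precision. The counting was tested on a copy of the wild-type levels with known shifts and noise of the size seen between repeat spots. Wild-type arrays differed from each other by more than that, so the test does not give the error of the counts. Alternatives were normexp background correction (limma 3.58.1, offset 50), quantile and median scaling, the series table, other rules for dim values and probes, other wild-type arrays as the control, and folds of 1.5 and 3.

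The members and the 35 gene lists were chosen with earlier results of these data known. The text names the family and sort markers, up to 4 genes each way per list, the 15 largest differences and 5 largest bounds each way, the 10 farthest outside the wild-type arrays, and those largest in both pairs or opposite between them; symbols beyond these (Fcer1a, Mcpt8) were chosen for their promoters. The response elements other than the RUNX motif, and the count of neighbouring probes, were chosen after seeing the data. Chromosome 18 promoters were not used here, and a few genes that the rule names are not reported here.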

Additional observations from a re-analysis of the deposited data

Results flagged for a closer look

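Some lists and genes differed from wild type in one direction in the first pair (RUNX1S291fs against wild type) and in the opposite direction in the second (RUNX1S291fs/Ezh2Δ/Δ against Ezh2Δ/Δ). With 1 array a group, the difference between the pairs was not tested. Immediate early genes had a median of 2.20 in the first pair and -1.24 in the second, and inflammatory and NF-kappaB genes 1.11 and -1.38.

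Of single genes higher in the first pair, the E protein inhibitor Id3 had 5.26 and -5.95, the dendritic cell activation marker Cd83 had 4.19 and -5.49, and the TWEAK receptor gene Tnfrsf12a had 3.77 and -4.27. Foxo6, a forkhead factor, had 3.75 and -4.28, and Fosl1, an AP-1 factor, 3.70 and -3.78.

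Of genes lower in the first pair, Prss57 had -3.73 and 2.05 and Afap1, an actin filament-associated protein, -3.50 and 2.16. Creb3l3 had -2.66 and 2.59, Zfp979 -2.40 and 2.55, and Ndrg2 -2.00 and 2.94.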

How the results depend on the processing

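No paired analysis was possible because each group had 1 array. The count of 1197 higher genes was 764 with normexp background correction, 735 against the CD45.1+ array of the double-mutant marrow, 778 against the mean of the 3 wild-type arrays, 2243 at 1.5-fold and 577 at 3-fold. The count of 805 lower genes was 398 with normexp, 1238 with dim values taken as measured, 1599 against the CD45.1+ array of the RUNX1S291fs marrow, 480 against the mean of the 3 wild-type arrays, 1859 at 1.5-fold and 302 at 3-fold. With normexp, chosen for these counts after seeing the data, 155 genes lay above and 95 below the wild-type arrays, and 168 were higher and 154 lower in both pairs. Of all 35 list medians, 24 moved by more than the SD of the wild-type arrays against the CD45.1+ array of the RUNX1S291fs marrow, 13 against that of the double-mutant marrow, 12 against the mean of 3 and at most 4 under any other setting. Among the 8 lists the text leads with, mast cell and inflammatory genes did not move, and 6 others did: those of eosinophil genes (3.36 against the CD45.1+ array of the double-mutant and 1.11 against that of the RUNX1S291fs marrow), megakaryocyte genes (1.84 against the latter), late neutrophil genes (-0.30 against the latter, a reversal), lymphoid-primed genes (-0.09 against the latter and -0.51 against the mean of 3), immediate early genes (0.73 against the array of the double-mutant marrow and 1.41 against the mean of 3) and interferon-stimulated genes (0.05 against the array of the RUNX1S291fs marrow). The cause of each was not tested.

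Of the 162 named genes, 162 kept their direction under normexp (136 of them still at least 2-fold apart), quantile or median scaling (161 each), the deposited series table and measured dim values (162 each), and 159 under the median over probes, where Klrb1c, Rag1 and Tcf7 gave 0. Against the CD45.1+ array of the RUNX1S291fs marrow 135 of 157 kept it, and those that reversed were Batf3 (-2.02), Ccr2 (-2.00), Cd3d (-0.88), Cdkn1c (0.74), Cebpe (-1.22), Chil3 (-0.23), Clec9a (-1.36), Csf1r (-0.38), Derl3 (-0.30), Elane (-2.87), F13a1 (-2.47), Fcgr3 (-1.23), Gzmb (-1.24), Hoxa10 (0.05), Hspa5 (-0.42), Hsph1 (-0.39), Lcn2 (-1.42), Mmrn1 (0.35), Ms4a3 (-2.68), Stfa1 (-0.22) and Vldlr (0.48), while Fcrla gave 0. Against that of the double-mutant marrow 145 of 161 kept it, and those that reversed were Batf3 (-0.62), Ccr2 (-0.09), Derl3 (-0.71), Elane (-0.37), F13a1 (-0.17), Fcrla (-0.75), Gzmb (-1.63), Hspa1a (-0.91), Hspb1 (-2.01), Hsph1 (-0.25), Jchain (-0.64), Ms4a3 (-0.02), Rps4l (1.32), Spib (-0.61) and Vegfa (-0.07), while Hoxc4 gave 0. Against the mean of the 3 wild-type arrays 150 of 157 kept it, and those that reversed were Batf3 (-0.48), Derl3 (-0.00), Elane (-0.55), F13a1 (-0.16), Gzmb (-0.60) and Ms4a3 (-0.22), while Mmrn1 gave 0. The cause was not tested. The deposited series table differs from the processed signal by a constant factor on each array, so its result was nearly fixed in advance. Many of the 162 genes were also named for large differences between the arrays of the first pair. Depth was limited by the signal over background of single arrays: a gene dim on 1 array has only a bound, and small differences of dim genes cannot be told from the error of an array.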

Other observations

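Dendritic cell and MHC class II genes were split in RUNX1S291fs against wild type, with 3 of 16 members higher, 3 lower and a median of -0.02. Ccr7 (-3.81), the integrin gene Itgax (-1.22) and the MHC class II gene H2-Aa (-1.09) were lower, and Cd83 (4.19), Clec9a (1.83) and Batf3 (1.22) higher. The lower 3 were also below all 3 wild-type arrays. In the second pair 9 of 16 members were lower and 0 higher.

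Among cytokine receptor genes 6 of 21 were higher and 3 lower. The receptor chain genes Csf2rb (1.41) and Csf2rb2 (1.93) were higher in the second pair too (2.77 and 3.16), as was Csf1r (3.02), and Flt3 (-2.67) and Il7r (-3.54) were lower there, whereas Epor (-1.40 and 0.63) changed sides.

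The 28446 probes without a gene name held a like share of differences: of 13115 compared, 1285 were higher and 939 lower by at least 2-fold, or 17.0% in all.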
